A study of Ovis aries with 15 samples.

Results

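Respiratory complexes II to V are the succinate dehydrogenase, cytochrome bc1, cytochrome c oxidase and ATP synthase enzymes of the mitochondrial inner membrane. Their genes were measured in the epithelium of the rumen, the first stomach chamber of sheep, in male Hu lambs 6 months old. Genes were taken by name (SDHA, SDHB, SDHC, SDHD, CYC1, or names starting UQCR, ATP5 or COX followed by 4 to 8). Of 19304 genes in the tables, 22 matched, and 21 of these reached at least 1 FPKM in at least 5 of 15 libraries, against 13084 of all genes. FPKM counts sequenced fragments scaled to transcript length and to the mapped fragments of the library, so levels are per length. The 21 kept genes were 4 of complex II, 1 of complex III (UQCRH), 1 of complex IV (COX5A) and 15 with ATP5 names, of which 13 code for ATP synthase subunits. Nothing said here of complex III or IV reaches beyond that single gene of each.

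The study compared lambs given a pelleted or a non-pelleted high-grain diet, per the series title. The labels name the groups HP, HG and CON, read here as pelleted high-grain, non-pelleted high-grain and control, with 5 libraries each. They do not give the diets' composition or duration, nor whether libraries stem from separate animals, so p-values measure the spread between libraries, which may be technical. Libraries are written below as the group with its number, such as CON3. Total RNA was extracted from frozen epithelium.

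Complex II oxidises succinate to fumarate, which makes it a step of the citric acid cycle as well as an entry point for electrons. Complex III passes electrons from ubiquinol to cytochrome c, and complex IV passes them on to oxygen. Complexes III and IV pump protons across the inner membrane, and ATP synthase lets protons flow back through its c ring to turn a stalk inside a catalytic head that makes ATP. The ruminal epithelium absorbs short-chain fatty acids from grain and forage fermentation and oxidises part of them, butyrate above all.

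No gene of the 21 passed the test (limma on log2(FPKM + 1), Benjamini-Hochberg over all genes tested, threshold 0.05) in any comparison. The share of all genes that passed was 0.0153% in HP against CON, 0.0% in HG against CON and 0.0% in HP against HG. The smallest adjusted p among the 21 was 0.0991 in HP against CON, 0.0779 in HG against CON and 0.999 in HP against HG. At an unadjusted p under 0.05, 13 of 21 were lower in HP than in CON, against 5.24% of all genes tested. In the same way 9 of 21 were lower in HG than in CON, against 5.5% of all genes. None of the 21 was higher at that p in HP or HG than in CON, where 22.6% and 21.8% of all genes were. The comparisons of HP and of HG with CON share the CON libraries and are not independent.

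The median log2 fold change of the 21 genes was -0.33 in HP against CON, where the median of all genes was 0.18. In HG against CON the median of the 21 was -0.27 and that of all genes 0.17. In HP against HG the medians were -0.07 and 0.01. Fold changes lay below 0 for 18 of 21 genes in HP against CON and for 17 in HG against CON, against 31.0% and 30.8% of all genes. Relative to the median gene, all 21 lay lower in HP than in CON and 19 lay lower in HG than in CON, SDHA and ATP5SL being the exceptions in HG. Under quantile normalization these counts were 18 and 15 of 21. Beside them, 38 complex I subunits had medians of -0.4 in HP against CON and -0.31 in HG against CON, and 74 cytosolic ribosomal protein genes had -0.46 and -0.38. In bulk tissue, fewer cells of a type and less RNA per cell cannot be told apart.

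**Figure D1:**
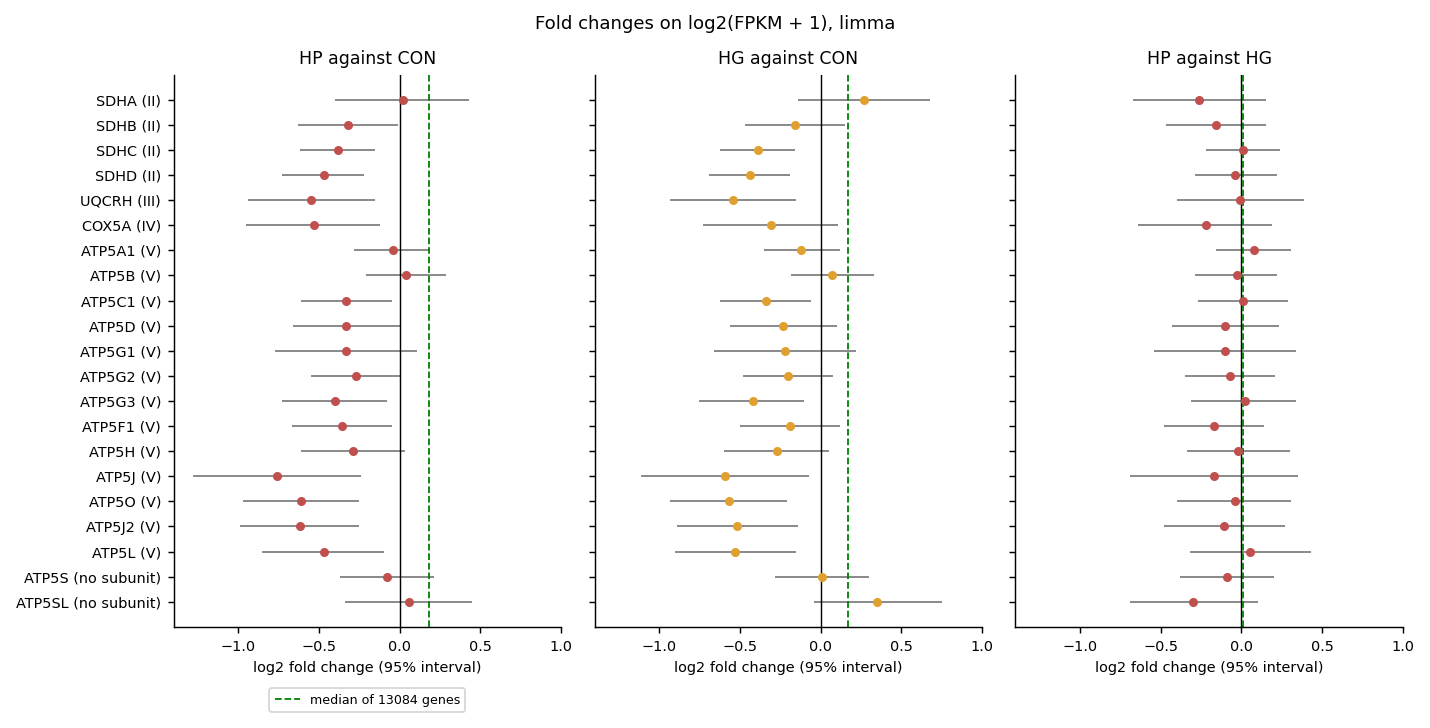
Log2 fold changes of the 21 genes on log2(FPKM + 1) with 95% intervals, in HP against CON, HG against CON and HP against HG. The dashed line is the median of 13084 genes, at 0.18, 0.17 and 0.01. Most genes lie left of 0 in the comparisons with CON, while SDHA, ATP5A1 and ATP5B lie near or above it.

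Some libraries stood apart before any gene was considered. CON1 and CON3 had summed FPKM of 594092 and 644334, against 442682 to 545394 in HP, 472106 to 510892 in HG and 476471 to 539921 in the other CON libraries. Their median gene was at 1.98 and 1.52 FPKM, where the other 13 libraries had 2.51 to 3.19. Ribosomal protein genes took 16.9% to 24.0% of the FPKM in HP, 21.3% to 23.2% in HG and 22.3% to 30.5% in CON, with the highest shares in CON3 (30.5%) and CON1 (27.8%). Many of the 21 genes were high there too: 12 of 21 were highest in CON3, a count not made for all genes. The median deviation of the 21 from the gene mean was 0.46 in CON3 and 0.35 in CON1, beside 0.29 in CON5. SDHD, SDHA and ATP5B went the other way in CON3, with their lowest CON values there (127.9, 136.7 and 437.7 FPKM). In CON1, SDHA and ATP5B instead had their highest CON values (234.7 and 492.1 FPKM). What sets CON1 and CON3 apart was not tested.

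**Figure D2:**
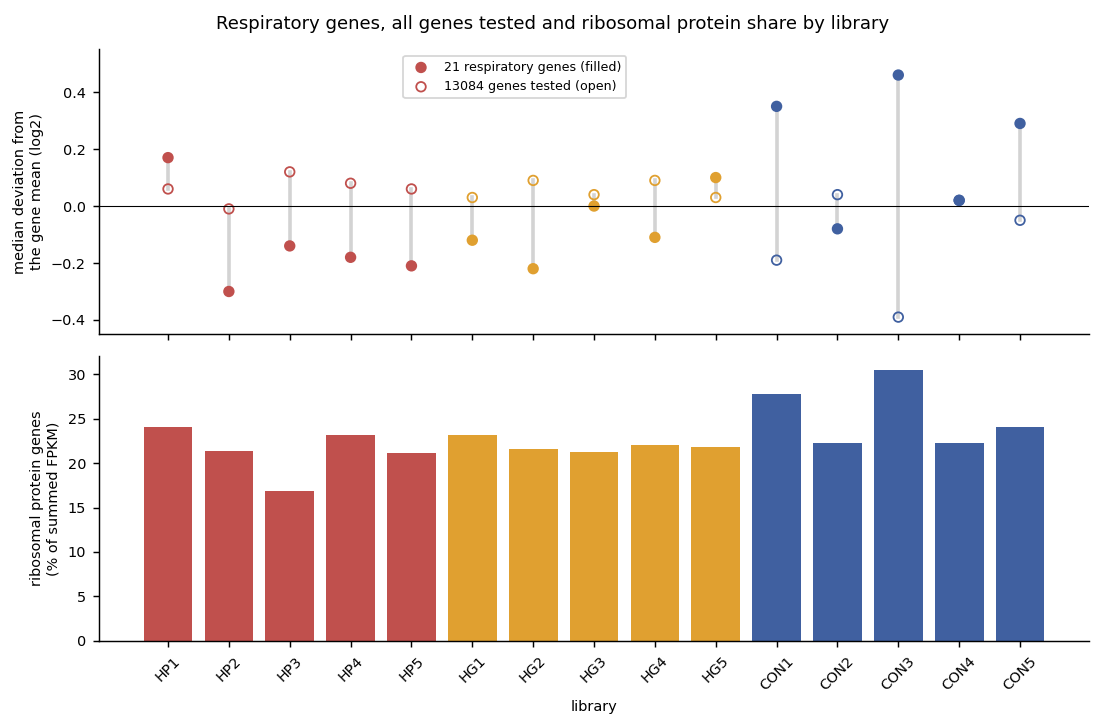
The upper panel gives, for each library, the median log2 deviation from the gene mean of the 21 respiratory genes (filled) and of all 13084 genes tested (open), and the lower panel the share of FPKM in ribosomal protein genes. In CON1, CON3 and CON5 the respiratory genes lie above 0 and all genes below it, and CON1 and CON3 have the highest ribosomal shares, 27.8% and 30.5%.

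Keratinocyte markers checked the tissue label. Of 15 listed, 14 were found, and their summed level was 4190.7 to 7438.1 FPKM in HP, 5005.8 to 6191.3 in HG and 3969.2 to 5646.7 in CON. DSG1, a desmosomal cadherin of upper layers, averaged under 1 FPKM. Smooth muscle markers (10 of 11 found) varied far more between libraries, at 199.5 to 3256.5 FPKM in HP, 224.9 to 5488.5 in HG and 193.9 to 1701.5 in CON. HG2, HG3, HP5 and CON1 held the high sums, so this marker did not separate the groups. Fibroblast markers (8 of 8 found) summed to 1027.8 to 1854.2 FPKM in HP, 1190.9 to 1974.6 in HG and 776.0 to 1275.7 in CON, with CON3 and CON1 lowest. Macrophage markers (7 of 8 found) summed to 84.7 to 208.1 FPKM in HP, 78.7 to 276.5 in HG and 168.9 to 286.4 in CON. No marker found was at 0 in every library, and the part of fibroblast and macrophage content in the results was not tested. With the smooth muscle level as a covariate, the median of the 21 genes was -0.34 in HP against CON and -0.24 in HG against CON.

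Of complex II, SDHC and SDHD code for the membrane anchors that bind ubiquinone, SDHB for the iron-sulfur subunit and SDHA for the flavoprotein that oxidises succinate. SDHC (gene1563) had 155.6, 161.6, 153.1, 140.9 and 143.8 FPKM in HP. In HG it had 146.9, 139.1, 147.9, 144.3 and 173.5 FPKM. In CON it had 201.6, 162.5, 204.8, 196.9 and 222.9 FPKM. HP lay below CON without overlap, by a margin of less than 1 FPKM between HP2 and CON2, and in HG only HG5 reached into the CON range. The log2 fold change was -0.38 ± 0.11 (SE) in HP against CON and -0.39 ± 0.11 in HG against CON, with limma adjusted p of 0.0991 and 0.0779.

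SDHD (gene19048) had 103.8, 103.6, 103.4, 100.1 and 117.8 FPKM in HP. In HG it had 117.1, 93.0, 109.4, 102.5 and 122.0 FPKM, and in CON 136.9, 134.6, 127.9, 167.4 and 174.4 FPKM. Every HP and every HG library lay below every CON library. Of all genes tested, 0.825% had every HP library below every CON library, and 1.13% had every HG library below every CON library. Among the 21 these were SDHC and SDHD in HP and SDHD in HG. None of the 21 had its HP or HG libraries all above CON, where 2.69% and 4.44% of all genes did. The log2 fold change of SDHD was -0.47 ± 0.12 in HP against CON and -0.44 ± 0.12 in HG against CON, with limma adjusted p of 0.0991 and 0.0779. Here the lowest CON libraries were CON3, CON2 and CON1, and the highest CON4 and CON5, so SDHD did not follow the order of CON1 and CON3 seen in most of the other genes. Without CON1 and CON3 its log2 fold changes were -0.58 in HP and -0.54 in HG, with limma adjusted p of 0.51 and 0.312. For SDHC they were -0.35 and -0.36, with adjusted p of 0.51 and 0.382.

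SDHA (gene20547) did not share this pattern. It had 231.7, 128.4, 190.0, 141.2 and 232.9 FPKM in HP, 189.8, 187.6, 218.0, 227.3 and 258.1 in HG, and 234.7, 191.5, 136.7, 143.3 and 199.8 in CON. The groups overlapped throughout, with CON3 and CON4 at the low end of CON. Its log2 fold change was 0.02 ± 0.19 (95% interval -0.4 to 0.43) in HP against CON and 0.27 ± 0.19 in HG against CON, with limma adjusted p of 0.965 and 0.366. Under median-ratio scaling it was -0.23 in HP and 0.04 in HG, and under quantile normalization 0.26 and 0.46. The direction of SDHA in HP against CON therefore depends on the scaling. SDHB (gene4931) had 84.2, 69.5, 80.8, 53.3 and 69.5 FPKM in HP, 83.6, 69.6, 81.0, 70.6 and 92.0 in HG, and 115.5, 80.4, 87.4, 80.1 and 82.6 in CON. Its groups overlapped, and CON1 alone, at 115.5 FPKM, stood well above the other libraries. Its log2 fold changes were -0.32 ± 0.15 in HP and -0.16 ± 0.15 in HG against CON, with limma adjusted p of 0.167 and 0.488.

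Ratios within a library do not change when the whole library is multiplied by a common factor. Quantile normalization shifts genes by different amounts and can change them, and the ratios were not recomputed under it. The ratio of SDHA to SDHC was 1.49, 0.794, 1.24, 1.0 and 1.62 in HP. In HG it was 1.29, 1.35, 1.47, 1.58 and 1.49, and in CON 1.16, 1.18, 0.668, 0.728 and 0.896. All HG libraries lay above all CON libraries, while HP overlapped both. HG exceeded CON by 1.59-fold (exact two-sided permutation test, p = 0.00794, the smallest that 252 assignments allow, and 0.143 after adjustment over 18 comparisons of 6 ratios). The ratio of SDHA to SDHD averaged 1.74 ± 0.408 in HP, 1.99 ± 0.226 in HG and 1.24 ± 0.334 in CON. HG exceeded CON by 1.64-fold and HP exceeded CON by 1.41-fold (exact permutation p = 0.0159 and 0.0714, adjusted 0.143 and 0.31). Without CON1 and CON3, the HG excess over CON was 1.56-fold for SDHA to SDHC and 1.77-fold for SDHA to SDHD. The ratio of the anchors to each other, SDHC to SDHD, was 1.43 ± 0.131 in HP, 1.39 ± 0.0898 in HG and 1.35 ± 0.183 in CON. None of the 18 comparisons passed adjustment, and the ratios were chosen after the values had been seen.

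**Figure D3:**
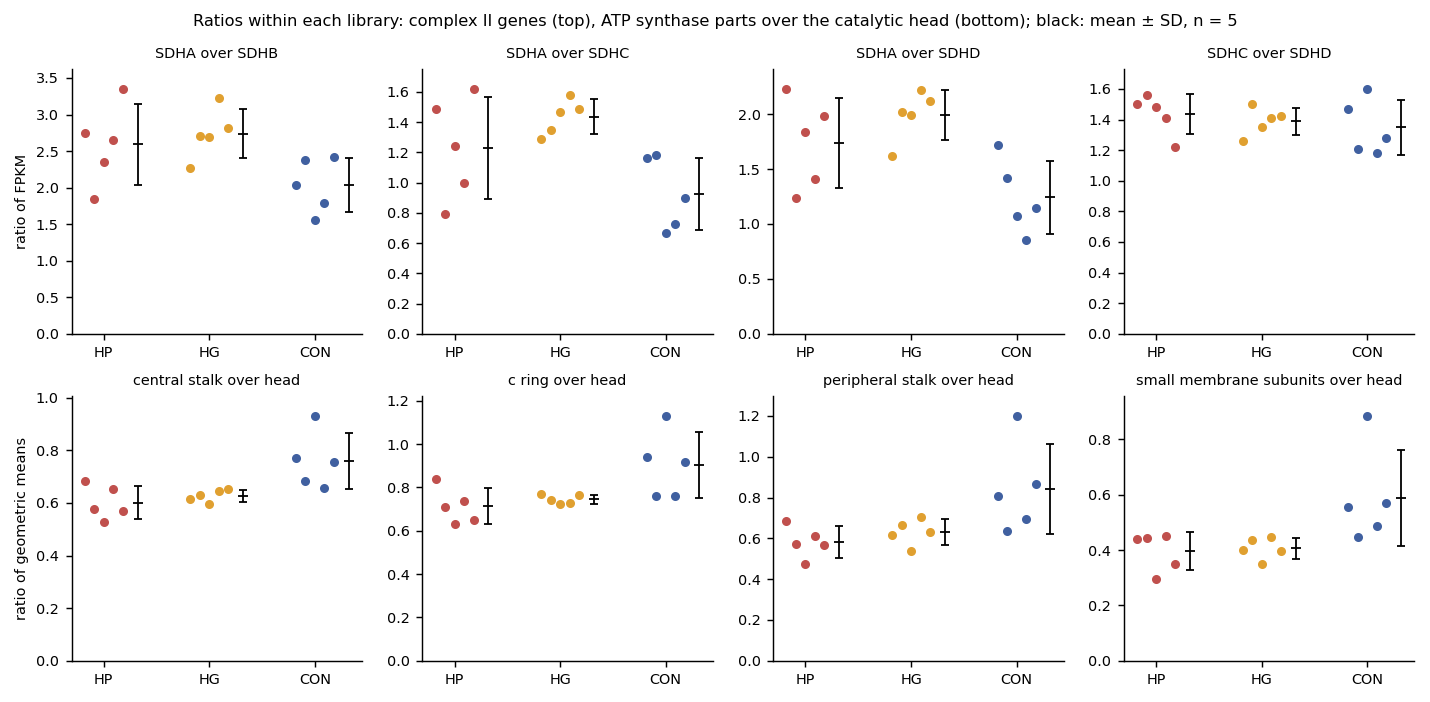
Ratios within each library, with the mean and SD (n = 5) in black: complex II genes in the upper row and parts of ATP synthase over its catalytic head in the lower row. SDHA to SDHC is 1.29 to 1.58 in HG and 0.668 to 1.18 in CON, and CON3 is the highest point in each panel of the lower row.

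UQCRH (gene367), the hinge protein of complex III next to cytochrome c1, was the most abundant of the 21 genes. It had 823.2, 593.1, 539.3, 655.7 and 629.5 FPKM in HP, 599.1, 609.7, 623.2, 690.6 and 708.3 in HG, and 1080.5, 722.0, 1485.7, 702.0 and 891.3 in CON. CON1 and CON3 were the high libraries, and CON2 and CON4 lay within the range of HP. The log2 fold change was -0.55 ± 0.19 in HP against CON and -0.54 ± 0.19 in HG against CON, with limma adjusted p of 0.106 and 0.0973. It was -0.26 in HP and -0.25 in HG when CON1 and CON3 were left out.

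COX5A (gene21624), a nuclear-encoded subunit of cytochrome c oxidase, had 138.7, 82.0, 108.8, 85.1 and 97.2 FPKM in HP. In HG it had 104.2, 136.3, 120.2, 101.5 and 128.8 FPKM, and in CON 176.6, 96.2, 199.0, 117.1 and 166.0 FPKM. Both diet groups overlapped CON, whose CON2 and CON4 were at the level of the high-grain libraries. The log2 fold change was -0.53 ± 0.2 in HP against CON and -0.31 ± 0.2 in HG against CON, with limma adjusted p of 0.117 and 0.311. Leaving out CON1 and CON3 gave -0.29 in HP and -0.07 in HG.

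**Figure D4:**
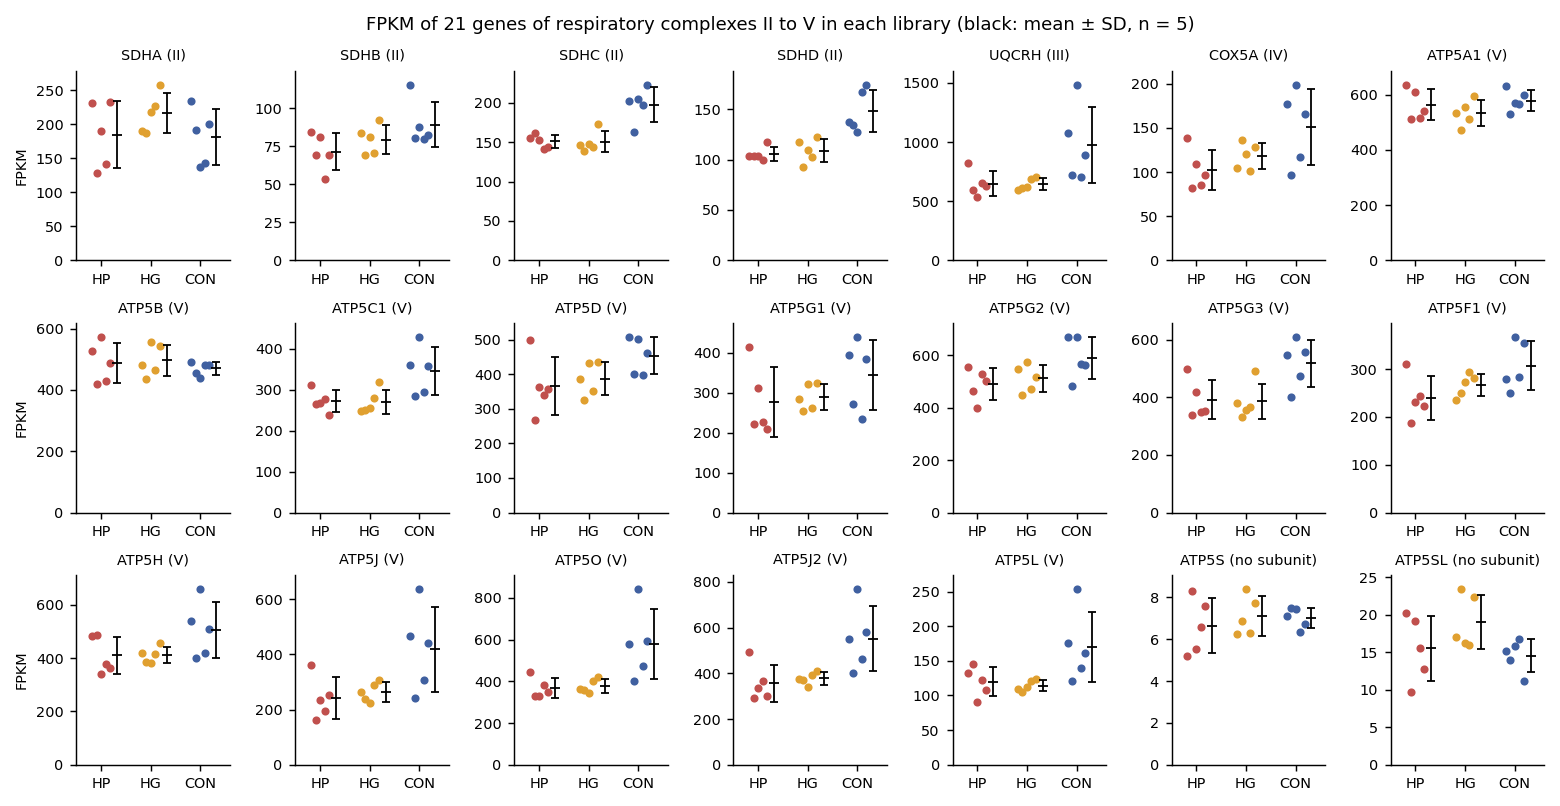
FPKM of the 21 genes in each library, 5 per group, with the mean and SD in black. SDHC and SDHD have CON libraries above the HP libraries without overlap, while most ATP synthase subunits overlap and have their highest value in CON3.

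Among ATP synthase genes, those of the catalytic head overlapped widely between the groups. ATP5A1 (gene25341) and ATP5B (gene6731) code for the alpha and beta subunits, which form the ATP-making sites. ATP5A1 averaged 562.8 ± 56.3 FPKM in HP, 533.8 ± 46.9 in HG and 578.4 ± 37.7 in CON (SD, n = 5 each). ATP5B averaged 486.7 ± 65.5 FPKM in HP, 496.2 ± 51.4 in HG and 470.2 ± 22.4 in CON. Their log2 fold changes against CON were -0.04 ± 0.11 and 0.04 ± 0.12 in HP, and -0.12 ± 0.11 and 0.07 ± 0.12 in HG, with limma adjusted p from 0.507 to 0.844. Under quantile normalization ATP5A1 had a log2 fold change of 0.23 in HP and 0.12 in HG, so its direction against CON depends on the scaling, and the sign of ATP5B was negative in both comparisons under median-ratio scaling.

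The other subunits lay lower in HP and HG than in CON, with group ranges that overlapped for every one, except that ATP5G2 had a log2 fold change of 0.04 in HG against CON under quantile normalization. ATP5O (gene1664), the subunit that joins the head to the peripheral stalk, had 447.2, 331.9, 328.6, 384.0 and 348.1 FPKM in HP. In HG it had 362.7, 358.5, 346.5, 402.1 and 420.4 FPKM, and in CON 578.5, 400.7, 842.4, 472.9 and 593.1 FPKM. Only CON2 lay within the HP and HG ranges, and CON3 was far above the rest. The log2 fold change was -0.61 ± 0.17 in HP against CON and -0.57 ± 0.17 in HG against CON, with limma adjusted p of 0.0991 and 0.0806. Without CON1 and CON3 it was -0.4 in HP and -0.36 in HG.

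ATP5J (gene1738), coupling factor 6 of the peripheral stalk, had the largest fold change of the 21 in HP. It had 362.1, 163.3, 234.2, 195.4 and 252.4 FPKM in HP, 262.6, 238.1, 222.6, 288.4 and 308.6 in HG, and 467.0, 240.3, 637.0, 306.6 and 440.4 in CON. CON2 and CON4 lay within the HP range, and HP1 was the highest HP library. The log2 fold change was -0.76 ± 0.24 in HP against CON and -0.59 ± 0.24 in HG against CON, with limma adjusted p of 0.101 and 0.142. Without CON1 and CON3 it was -0.45 in HP and -0.28 in HG.

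ATP5F1 (gene931, subunit b) and ATP5H (gene15515, subunit d) complete the peripheral stalk, which holds the head still. ATP5F1 averaged 239.6 ± 45.4 FPKM in HP, 266.9 ± 23.7 in HG and 307.4 ± 50.6 in CON. ATP5H averaged 410.2 ± 69.4 FPKM in HP, 411.8 ± 29.7 in HG and 505.2 ± 104.2 in CON. Their log2 fold changes against CON were -0.36 and -0.29 in HP and -0.19 and -0.27 in HG. Over the 4 stalk genes the median was -0.49 in HP against CON and -0.42 in HG against CON.

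ATP5J2 (gene26267, subunit f) and ATP5L (gene19132, subunit g) are small membrane subunits that help ATP synthase form dimers. ATP5J2 had 491.6, 290.5, 335.4, 366.4 and 299.2 FPKM in HP, 374.0, 369.3, 338.6, 394.6 and 410.3 in HG, and 549.5, 401.5, 768.2, 460.5 and 580.2 in CON. HG5 and HP1 reached into the CON range, and CON2 was the lowest CON library. Its log2 fold change was -0.62 ± 0.18 in HP against CON and -0.52 ± 0.18 in HG against CON, with limma adjusted p of 0.0991 and 0.0952. ATP5L averaged 119.8 ± 21.1 FPKM in HP, 114.2 ± 7.78 in HG and 170.2 ± 51.0 in CON, with log2 fold changes of -0.47 ± 0.18 in HP and -0.53 ± 0.18 in HG against CON.

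The central stalk genes are ATP5C1 (gene16539, gamma subunit), which turns inside the head, and ATP5D (gene9690, delta subunit). ATP5C1 averaged 272.4 ± 26.8 FPKM in HP, 270.6 ± 29.4 in HG and 346.0 ± 58.7 in CON. ATP5D averaged 365.4 ± 83.2 FPKM in HP, 386.7 ± 48.0 in HG and 453.8 ± 52.9 in CON. Both had a log2 fold change of -0.33 in HP against CON, and in HG they had -0.34 and -0.23.

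Subunit c, of which several copies form the rotating ring, is coded by ATP5G1 (gene14918), ATP5G2 (gene6327) and ATP5G3 (gene3952), whose mature proteins are the same in mammals. Their summed level was 1157.9 ± 178.3 FPKM in HP, 1185.9 ± 118.9 in HG and 1452.5 ± 233.9 in CON. ATP5G2 gave the largest share, 42.7% ± 5.69 in HP, 43.2% ± 2.74 in HG and 40.8% ± 2.73 in CON. ATP5G3 gave 33.8% ± 1.93 in HP, 32.5% ± 3.07 in HG and 35.7% ± 1.42 in CON. ATP5G1 gave 23.6% ± 4.1 in HP, 24.3% ± 0.882 in HG and 23.5% ± 3.02 in CON, so the differences in share between groups were smaller than the spread between libraries for ATP5G1. ATP5G3 had the largest fold change of these genes, -0.4 in HP and -0.42 in HG against CON, with limma adjusted p of 0.121 and 0.107.

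Set against the catalytic head of the same library, every other part of ATP synthase averaged lower in HP and HG than in CON. The geometric mean of ATP5A1 and ATP5B was 523.1 ± 59.5 FPKM in HP, 514.6 ± 48.0 in HG and 521.4 ± 26.9 in CON. The small membrane subunits stood at 0.396 ± 0.0699 of it in HP, 0.406 ± 0.0383 in HG and 0.589 ± 0.173 in CON. The peripheral stalk stood at 0.582 ± 0.0767 in HP, 0.631 ± 0.0626 in HG and 0.842 ± 0.222 in CON. The central stalk stood at 0.602 ± 0.0637 in HP, 0.628 ± 0.0231 in HG and 0.76 ± 0.107 in CON. For the central stalk the HG libraries (0.597 to 0.654) lay below all CON libraries (0.658 to 0.931), by a margin smaller than the CON spread. CON3 was the highest library for each of these parts, and no test was made because the parts were compared after their values had been seen.

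The remaining ATP5 names are not ATP synthase subunits in present usage. ATP5S (gene11748, coupling factor B) averaged 6.65 ± 1.32 FPKM in HP, 7.11 ± 0.937 in HG and 7.02 ± 0.49 in CON. ATP5SL (gene18245), known from human cells as an assembly factor of complex I, averaged 15.5 ± 4.35 FPKM in HP, 18.9 ± 3.6 in HG and 14.5 ± 2.18 in CON. Its log2 fold change was 0.06 in HP against CON and 0.35 ± 0.19 in HG against CON, with limma adjusted p of 0.859 and 0.228. The gene left out by the level rule was ATP5I (gene11100, subunit e), which reached 1 FPKM in 3 libraries and averaged 0.647 FPKM over all 15. ATP5S, the lowest of the genes kept, averaged 6.93 FPKM.

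Between the high-grain diets no difference was detected in the 21 genes. Log2 fold changes of HP against HG ran between -0.3 (ATP5SL) and 0.08 (ATP5A1), and none had an unadjusted p under 0.05, against 1.02% of all genes lower and 1.09% higher. None separated HP from HG without overlap, where 0.199% of all genes did so downward and 0.252% upward. Of the 21, 16 lay below 0, as did 48.8% of all genes. SDHA and COX5A averaged lower in HP than in HG, at -0.26 and -0.22 on the log2 scale, with limma adjusted p of 0.999. The 95% interval for SDHC in HP against HG was -0.22 to 0.24, and for SDHD -0.29 to 0.22.

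Which genes passed the threshold in the comparisons with CON depended on CON2 and, in HG against CON, on the weight of libraries. Without CON2, 9 of 21 genes were lower in HP than in CON at a limma adjusted p under 0.05, against 2.53% of all genes, and 9 of 21 were lower in HG than in CON, against 2.93%. Shared by both were SDHC, SDHD, UQCRH, ATP5G3, ATP5J, ATP5J2, ATP5L and ATP5O, with COX5A added in HP and ATP5C1 in HG. Without CON2 and HP1 together, 14 genes were lower in HP, against 5.17% of all genes, and 9 in HG, against 3.64%. CON2 had the lowest summed level of the 21 genes in CON (6052 FPKM) and HP1 the highest in HP (7233 FPKM). Leaving out both therefore widens the difference of HP from CON by the choice of libraries itself. With array quality weights, which count outlying libraries less, 4 were lower in HG, against 1.62%. In HP against CON with these weights 0 of the 21 passed, and 0 of all genes. CON2 had the lowest CON level for 12 of the 21 genes, a count not made for all genes. With CON1 and CON3, the libraries with the highest levels, left out, no gene passed and the medians of the 21 were -0.22 in HP and -0.12 in HG against CON, where the medians of all genes were both 0.06.

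**Figure D5:**
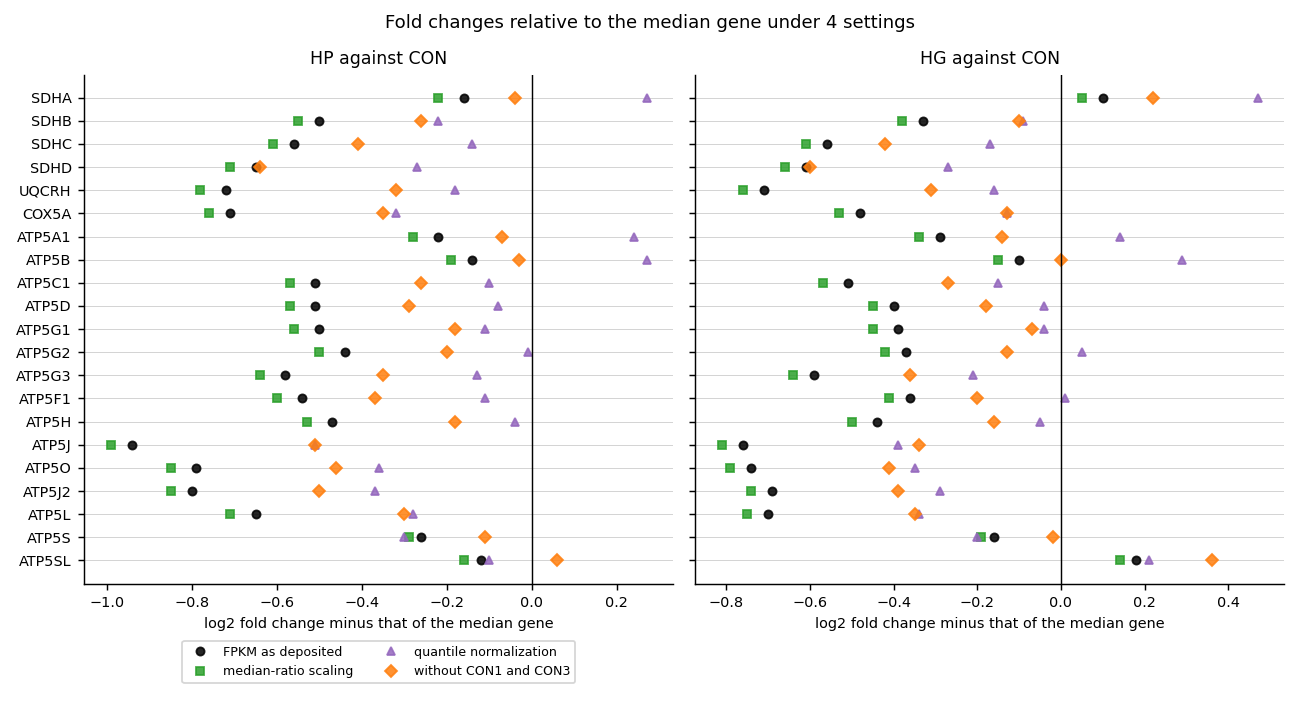
Log2 fold changes of the 21 genes less that of the median gene, in HP against CON and HG against CON, under FPKM as deposited, median-ratio scaling, quantile normalization and without CON1 and CON3. Most of the 21 genes lie below 0 under all settings drawn in both comparisons, SDHC, SDHD, UQCRH and COX5A among them. SDHA, ATP5A1 and ATP5B lie above 0 in both under quantile normalization.

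Other genes of the pathway were described from lists, whose counts at an unadjusted p under 0.05 stand beside those of all genes tested. Of all genes, 5.24% were lower and 22.6% higher in HP than in CON, and 5.5% lower and 21.8% higher in HG than in CON. Of 12 names listed for the mitochondrially encoded subunits of complexes III to V, 0 were found, so nothing is said of those subunits. Of 38 assembly factors of complexes II to V listed, 15 were found and tested. Among these 15, 3 were lower in HP than in CON at an unadjusted p under 0.05 and 4 lower in HG than in CON, and none was higher. Below the median gene lay 15 of 15 in HP and 14 of 15 in HG. PET100, which assists assembly of complex IV, averaged 66.7 ± 7.74 FPKM in HP, 68.1 ± 11.5 in HG and 111.5 ± 33.2 in CON, with limma adjusted p of 0.0991 and 0.0779. SDHAF3, an assembly factor of the iron-sulfur subunit of complex II, averaged 7.43 ± 2.33 FPKM in HP, 6.5 ± 1.48 in HG and 11.2 ± 2.99 in CON. None of the genes on any list passed the adjusted threshold.

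Of 15 electron carriers and genes of their synthesis tested, 1 was higher and 1 lower in HP than in CON at an unadjusted p under 0.05, and likewise 1 and 1 in HG. Below the median gene lay 13 of 15 in HP and 13 of 15 in HG against CON, and the list's median log2 fold change less that of all genes was -0.22 in each. ETFA, the alpha subunit of the flavoprotein that carries electrons from fatty acid oxidation, averaged 149.3 ± 39.2 FPKM in HP, 139.5 ± 31.9 in HG and 214.0 ± 22.3 in CON. Every HP and HG library lay below every CON library for ETFA, with limma adjusted p of 0.11 and 0.082. In HP the margin was narrow, the highest HP library being at 191.1 FPKM and the lowest CON library at 192.0. Of all genes, 0.825% had every HP library and 1.13% every HG library below CON. ETFDH, which hands those electrons to ubiquinone, averaged 101.2 ± 16.6 FPKM in HP, 119.2 ± 13.0 in HG and 87.7 ± 24.4 in CON, with limma adjusted p of 0.404 and 0.117. Of the genes with the smallest p on all lists, PET100 and VDAC1 in HP and SDHAF3 and TFB2M in HG also lay below CON without overlap. COQ10A lay above CON without overlap in HP, as did 2.69% of all genes. Overlap was not counted over the whole lists.

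Of 14 citric acid cycle genes tested, 1 was higher and 1 lower in HP than in CON at an unadjusted p under 0.05, while in HG 3 were higher and 1 lower. The share higher in HG was close to that of all genes, 21.8%, and 11 of 14 lay below the median gene in HP and 9 of 14 in HG. OGDH, the first subunit of the 2-oxoglutarate dehydrogenase complex, averaged 56.0 ± 8.54 FPKM in HP, 61.6 ± 6.63 in HG and 42.9 ± 10.1 in CON, with limma adjusted p of 0.135 and 0.0804. FH, fumarase, which acts on the product of complex II, averaged 94.0 ± 9.1 FPKM in HP, 90.4 ± 14.5 in HG and 111.8 ± 9.56 in CON. Of 10 carriers and outer membrane proteins tested, 3 were lower in HP and 3 lower in HG than in CON at that p, and none was higher. Below the median gene lay 9 of 10 in HP and 10 of 10 in HG. VDAC3, a pore of the outer membrane, averaged 58.2 ± 9.43 FPKM in HP, 53.4 ± 5.31 in HG and 71.5 ± 10.5 in CON, with limma adjusted p of 0.171 and 0.0925.

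Of 12 regulators of mitochondrial gene expression tested, 3 were higher and 1 lower in HP than in CON at an unadjusted p under 0.05, and 4 were higher and 1 lower in HG. With so few genes, these counts are near the 22.6% and 21.8% of all genes that were higher. PPARGC1B, a coactivator of genes for oxidative metabolism, averaged 11.4 ± 3.46 FPKM in HP, 10.3 ± 1.17 in HG and 6.43 ± 3.62 in CON, with limma adjusted p of 0.111 and 0.131. POLG, the catalytic subunit of the mitochondrial DNA polymerase, averaged 18.4 ± 2.94 FPKM in HP, 18.6 ± 1.43 in HG and 13.5 ± 3.63 in CON. TFB2M, a mitochondrial transcription factor, averaged 9.98 ± 1.06 FPKM in HP, 10.1 ± 0.474 in HG and 12.4 ± 0.836 in CON. The median log2 fold change of this list was 0.25 in HP against CON and 0.28 in HG against CON, beside 0.18 and 0.17 for all genes tested.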

How the data were processed

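The authors deposited 1 table per library of ruminal epithelium with FPKM values, per the file headers. Per the submitters' processing notes, the tools were HISAT2 and StringTie (1.3.4d), in roles the notes do not state. No source used here gives the genome build or annotation. Depth cannot be read from FPKM, whose low values held no whole-read steps, so no counting interval is given. FPKM is a share, so a few abundant genes can shift all others of a library.

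The genes and lists were chosen with earlier results of these data known. All 15 libraries entered 1 model of group means in limma 3.58.1 (R 4.3.3, statmod 1.5.0, trend and robust) on log2(FPKM + 1), which understates fold changes of low genes. The test covered the 13084 genes that reached 1 FPKM in 5 or more libraries, with Benjamini-Hochberg adjustment over all of them. The method was tested on simulated data, where the changes added were larger than those of the 21 genes with all 15 libraries on the deposited scale. That test therefore says nothing of power for smaller changes. Ratios within a library were tested by exact permutation of group labels. Named were all genes kept and, from each pathway list, some of those with the smallest p. For the lists, 346 genes named only by a LOC number took their symbol from RefSeq (assembly ARS-UI_Ramb_v3.0). The rule for the respiratory genes used the names as deposited. Rows with no name, 4157 in all, could not match it. Sequences were not used here. Alternatives were another pseudocount, other filters, median-ratio and quantile scaling, fits of 10 libraries, quality weights, a replicate block, a smooth muscle covariate and libraries left out.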

Additional observations from a re-analysis of the deposited data

Results flagged for a closer look

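Of 63 sets of a gene and a group, and the summed level of the 21 genes in each group, 4 held a library whose gap to its nearest neighbour was over 0.71 of the group's range. By chance about 5% of groups do so. SDHC in HG5 was 173.5 FPKM, where the other HG libraries had 139.1 to 147.9. Of the HG libraries only HG5 overlapped CON for SDHC, and it exceeded only CON2, at 162.5 FPKM. SDHD in HP5 was 117.8 FPKM, where the other HP libraries had 100.1 to 103.8, and it still lay below every CON library. SDHB in CON1 was 115.5 FPKM, where the other CON libraries had 80.1 to 87.4. The summed level of the 21 genes in HP1 was 7233 FPKM, where the other HP libraries had 5251 to 5703, and HP1 also had the highest total FPKM of HP, 545394.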

How the results depend on the processing

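None of the fold changes reversed while past the threshold under the 26 alternatives run for each result. Of the results on single genes and complexes, 1702 stayed on their side of the threshold or within the spread between libraries, 47 moved by more and 45 passed the threshold. The number of the 21 genes past the threshold in HG against CON was 0 with all libraries, 4 with array quality weights (ATP5J2, ATP5O, SDHC, SDHD) and 9 without CON2 and HP1, and leaving out 1 library gave 0 to 9. In HP against CON it was 0 with array quality weights and 14 without CON2 and HP1, and leaving out 1 library gave 0 to 9. Median-ratio scaling gave medians of -0.58 in HP and -0.5 in HG against CON, and quantile normalization gave -0.14 in HP. Relative to all genes, the median was -0.13 in HP and -0.13 in HG under quantile normalization, and -0.18 in HG without CON1 and CON3. At an unadjusted p under 0.05, quantile normalization put 6 genes lower and 1 higher in HP, and 6 lower and 2 higher in HG, than in CON. The cause of these moves was not tested. Leaving out 1 library gave medians of -0.45 to -0.29 in HP and -0.35 to -0.19 in HG against CON, and -0.12 to -0.04 in HP against HG. The adjusted p of SDHD ran from 0.0203 to 0.51 in HP and from 0.0253 to 0.312 in HG against CON, that of SDHC from 0.015 to 0.51 and from 0.0174 to 0.382. Deviations of same-numbered libraries had correlations of -0.199 to 0.293, with 3 of 15 pairs over 0.1. Differently numbered pairs were not set beside them, so these values cannot tell whether the numbers pair libraries. With the replicate number as a block, 0 genes passed in each comparison, and the medians were -0.33, -0.27 and -0.07. The planned comparisons of promoter motifs and protein length were not run.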

Other observations

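On the log2(FPKM + 1) scale, the SD among CON libraries exceeded that among HP libraries for 12 of the 21 genes, against 63.9% of all genes tested. It exceeded that among HG libraries for 16 of 21, against 71.5% of all genes. The 21 genes held 1.23% ± 0.0783 of the summed FPKM in HP, 1.24% ± 0.075 in HG and 1.37% ± 0.0863 in CON (SD, n = 5 each). No gene of the 21 had its lowest value in a CON library, while 17 had it in HP, 8 of these in HP2, and 4 in HG. These counts were not made for all genes tested, so how unusual they are is not known. ATP5I, listed near 0, had its highest values in CON5 (2.62 FPKM), HP4 (1.93) and HG1 (1.01).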
